A study of Mus musculus with 4 samples.

Results

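The HoxD region is the stretch of mouse chromosome 2 that holds the Hoxd genes together with the long flanks from which those genes are regulated. Its members here are TBX5 binding peaks, taken by position alone: every listed peak with its summit between 73.8 and 75.6 Mb of chromosome 2. They number 79 of the 11224 peaks in the list, or 0.704%, and all 79 are accounted for. By the limits that came with that choice, 20 lie on the centromeric side (below 74.5 Mb), 15 in the cluster interval (74.5 to 74.61 Mb) and 44 on the telomeric side (above 74.61 Mb). The study precipitated TBX5-bound chromatin from forelimbs of wild-type embryos of the outbred ICR stock at embryonic day 10.5, using a polyclonal TBX5 antibody. It has 4 libraries, 2 of TBX5 ChIP and 2 of input, the sheared chromatin sequenced without precipitation. The tissue is the whole forelimb, so the peaks mix all of its cell types, and the labels do not say how many embryos went into a library. A single list stands for both ChIP libraries, so each peak has 1 value, replicate spread cannot be given, and read depth is unknown.

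TBX5 is a T-box transcription factor needed to start the forelimb. The Hoxd genes encode homeodomain transcription factors that pattern the limb from shoulder to digits, and their order on the chromosome follows the order in which they are used. In limb buds they are driven by enhancers in both flanks: a telomeric domain is known for the early phase, which covers the upper arm and forearm, and a centromeric domain for the later phase in the digits. In the RefSeq gene table of GRCm38.p6, used here for gene order only, the protein-coding genes run from the centromeric side as Chn1, Atf2, Atp5g3, Lnpk, Evx2, Hoxd13, Hoxd12, Hoxd11, Hoxd10, Hoxd9, Hoxd8, Hoxd3, Hoxd4, Hoxd1, Mtx2, Gm50595, Hnrnpa3, Nfe2l2 and Agps. That order goes by the lowest position of each gene entry, which puts Hoxd3 before Hoxd4, and it need not be the order of use. Evx2 encodes an even-skipped type homeodomain factor and shares digit enhancers with its neighbour Hoxd13, which is required for normal digits. Hoxd11 acts with its paralogue Hoxa11 in the forearm, and Hoxd9 is used earlier and closer to the body. Lnpk, a protein of the endoplasmic reticulum, and Mtx2, a mitochondrial import protein, border the homeobox genes on either side.

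Which peaks fall on the genes depends on the genome build. The labels name mm10, the GRCm38 assembly, but summits on chromosome 7 spanned 147.4 Mb and 29 summits lay beyond the last gene of that chromosome in GRCm38.p6, by up to 7.07 Mb. The limits above are those of the Hoxd genes in the earlier build mm9, for which no annotation was used here. Peaks are therefore placed in the cluster interval as a whole and not at a single gene. If the positions were nevertheless read as GRCm38, the interval from Hoxd13 to Hoxd1 would hold 3 peaks, and the 15 peaks described below would count as centromeric. Evx2 lies next to Hoxd13 and may fall on either side of the centromeric limit. With both cluster limits moved outward by 50 kb to take in such neighbours, the cluster held 19 peaks, the centromeric side 16 and the telomeric side 44.

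The promoter of Hoxd9 is shown because it was the only one of the members' promoters to hold a T-box core motif. The motifs searched were AGGTGT and GGTGTGA, which overlap each other, on both strands of RefSeq promoters running from 250 bases before to 50 bases after each gene start. All 7 member genes matched the promoter table, with 8 promoters because Hoxd11 has 2. Both motifs occurred in 1 of the 8, at the same place in Hoxd9, from 147 to 140 bases before the start. The 250 bases before the start of Hoxd9 (chr2:74697513-74697762, plus strand, GRCm38.p6) are given with the overlapping motifs in capitals.
Hoxd9: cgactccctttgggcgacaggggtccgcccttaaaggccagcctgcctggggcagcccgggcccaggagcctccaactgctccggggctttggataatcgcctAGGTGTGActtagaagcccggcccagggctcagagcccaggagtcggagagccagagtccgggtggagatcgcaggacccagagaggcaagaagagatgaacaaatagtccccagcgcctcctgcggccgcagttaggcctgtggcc
Among all 32851 promoters of 300 bases in the table, 13.7% held AGGTGT and 3.98% held GGTGTGA, against 12.5% of the member promoters for each. Either motif was held by 16.1% of all promoters and 12.5% of the member promoters, and each member share is the 1 promoter of Hoxd9. Evx2, Hoxd13, Hoxd12, Hoxd11, Hoxd10 and Hoxd8 had no match in these windows, nor did the neighbours Hoxd4, Hoxd3 and Hoxd1. A match describes letters only. It could not be set against a peak, because the promoter table and the peak list use different coordinates.

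The 79 peaks made the HoxD region the fullest of 1395 windows of 1.8 Mb laid side by side along the chromosomes from the first to the last summit. These windows were aligned to the region's own limits, so it was counted whole, while dense stretches elsewhere could be cut. Such windows held a median of 6 peaks and an upper quartile of 11, and 138 held none. The next fullest, on chromosome 18, held 68. With windows started every 100 kb, no window away from HoxD reached 79, but one on chromosome 18 held 77. The margin over that window is 2 peaks, and the region's own limits were set with its peaks in view. The region had 4.39 peaks per 100 kb, which was 9.94 times the 0.441 per 100 kb of the whole list. The rest of chromosome 2 had 0.506 per 100 kb. Another summit lay within 10 kb of 65 of the 79 peaks (82.3%), against 42.7% of the whole list.

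In strength, the 79 peaks as a whole lay near the rest of the list. The signal value, the strength the peak caller gave each peak, had a median of 30.2 in the region (95% binomial interval 26.5 to 39.3) and 27.2 in the whole list. In the rest of chromosome 2 its median was 26.3. Of the 79 peaks, 10 (12.7%) were among the strongest 10% of the list. The IDR score rates how reproducibly a peak ranked in both replicates, and its ceiling is 1000. It was reached by 46 of the 79 (58.2%), against 45.4% of the list. An irreproducible discovery rate (IDR) of 0.01 or below was given to 57 of the 79 (72.2%), against 60.0% of the list. These are descriptions of 1 list without a test, since peaks are not replicates.

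The peaks were not laid out evenly between the flanks and the genes. The cluster interval takes up 6.11% of the region's length and held 19.0% of its peaks, but 10.8% of its summed signal. The density there was 13.6 per 100 kb, against 2.86 on the centromeric side and 4.44 on the telomeric side, ratios of 4.77 and 3.07. At an IDR of 0.01 or below the cluster density was 7.27 and the ratios 2.99 and 2.25, and in the 50% of peaks with the higher signal it was 5.45 and the ratios 2.94 and 1.86. With the cluster limits moved outward by 50 kb they were 9.05, 3.68 and 1.93, and with limits from the GRCm38.p6 gene table they were 3.10, 0.768 and 0.630, the cluster then being the least dense part. At the limits and peaks first given, all 3 parts were above the 0.441 of the whole list. The strongest peaks, by contrast, were in the flanks. The plot of signal against distance shows this layout.

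**Figure D1:**
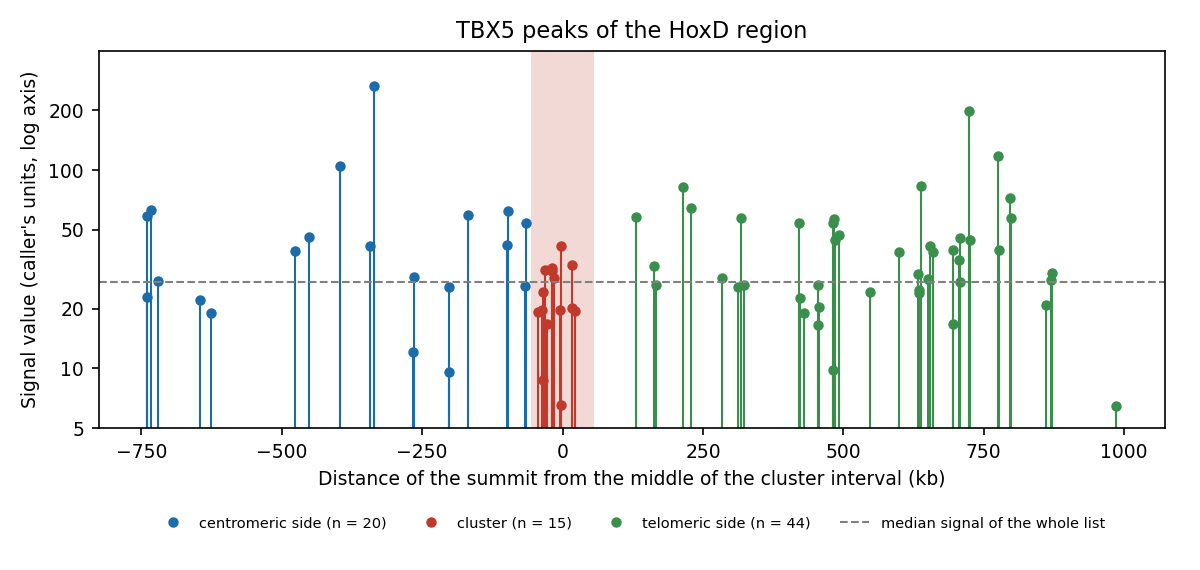
Each stem is 1 of the 79 TBX5 peaks, placed by the distance of its summit from the middle of the cluster interval (kb) and by its signal value on a log axis; the shaded band is the cluster interval of 110 kb and the dashed line the median of the whole list (27.2). The 15 cluster peaks stay at or below 41.2, while the centromeric side reaches 266.0 and the telomeric side 198.2.

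Inside the cluster interval, the 15 peaks were close together and of low to middling strength. The weakest had a signal of 6.52 and the strongest 41.2, around a median of 20.04, and 6 of 15 were above the median of the list, which 50.0% of all peaks exceed by definition. None was among the strongest 10% of the list. The strongest had its summit at 74552654, 52.7 kb into the interval, with a signal of 41.2. It ranked 2658 in the list. The next were the peaks at 74572698 (33.3), 74535395 (32.3), 74523429 (31.5) and 74537008 (30.9). These 5 were also the only cluster peaks with the full score of 1000, a share of 33.3% (95% exact binomial interval 11.8 to 61.6%) against 45.4% in the list. A further peak at 74539168 had a signal of 28.6 and a score of 895. An IDR of 0.01 or below was reached by 8 of the 15 (53.3%), against 60.0% of the list, and 15 peaks are too few to set these shares apart.

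The remaining 9 cluster peaks were weaker. The peak at 74519924 had a signal of 24.1. Signals between 16.8 and 20.1 were listed at 74510776 (19.3), 74517612 (19.7), 74527959 (16.8), 74549818 (19.8), 74571186 (20.04) and 74577917 (19.6), and their scores lay between 603 and 679. The lowest values were 8.76 at 74520226 and 6.52 at 74552902. Both of these lay within 500 bp of a stronger summit, at 302 and 248 bp, and had q-values of 0.219 and 0.598. A q-value above 0.05 was given to 6.07% of the whole list and 6.33% of the region (5 of 79). Every cluster peak had the list's most frequent width of 416 bp, which 84.3% of the list had (9459 of 11224). Peaks narrower than that made up 15.4% of the list, 35.0% of the centromeric side (7 of 20) and 27.3% of the telomeric side (12 of 44).

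Along the cluster, 12 of the 15 peaks lay between the Hoxd13 end and the middle of the interval, and 3 lay past the middle toward Hoxd1. The first summit was 10.8 kb and the last 77.9 kb into the interval of 110 kb, and the former 12 fell within 42.1 kb, from 74510776 to 74552902. The remainder of the interval up to its telomeric limit held none. The stretch without a summit continued past the telomeric limit for 107.9 kb in all, from 74577917 to 74685825, on the side where Mtx2 is the next protein-coding gene. It was the third longest such stretch of the region. On the centromeric side the gap was shorter: the nearest peaks had their summits 10.6 and 12.6 kb outside the limit, with signals of 54.1 and 25.9.

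**Figure D2:**
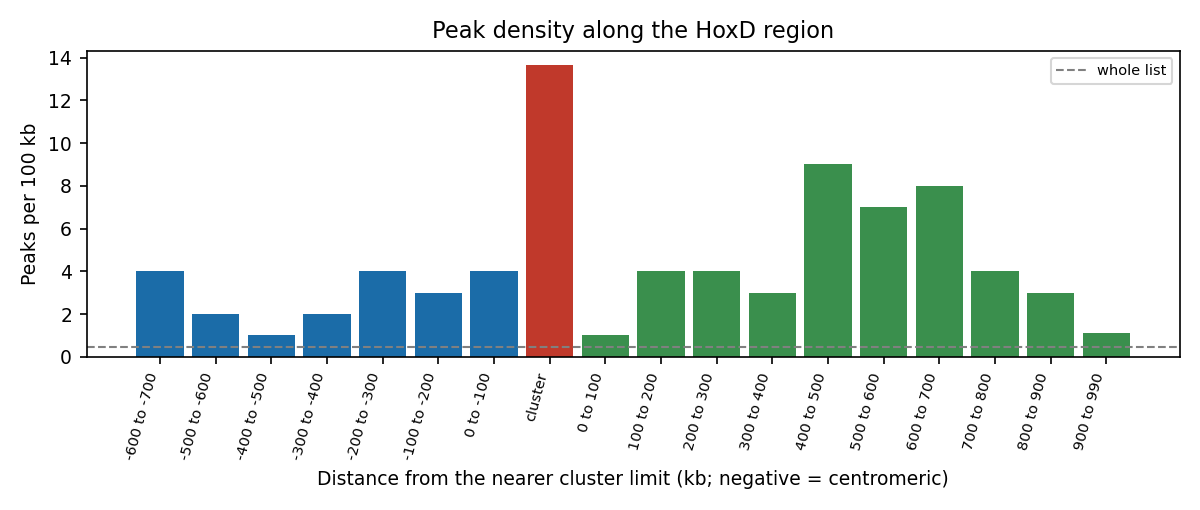
Bars give TBX5 peaks per 100 kb in the cluster interval and in steps of 100 kb away from its nearer limit, negative on the centromeric side (the last telomeric step is 90 kb, scaled to 100 kb); the dashed line is the whole list (0.441). The cluster stands at 13.6, the first telomeric step holds 1 peak, and the steps from 400 to 700 kb hold 9, 7 and 8.

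At the limits first given, the centromeric side was the least dense of the 3 parts, though above the whole list (2.86 against 0.441 per 100 kb). It held the strongest peak of the whole list. That peak (chr2:74218964-74219317, positions as deposited) had its summit 280.9 kb from the cluster limit and a signal of 266.0, against a list median of 27.2. This is 2.55 times the signal of the next on this side, at 74159095 (signal 104.3, rank 245 in the list), which lay 340.9 kb from the limit. Next came the peaks at 73821407 (62.7), 74457592 (62.0) and 74386522 (59.1), and all 5 had the full score. Signals on this side ran from 9.60 to 266.0 with a median of 40.2, and 13 of 20 were above the median of the list. The weakest, 9.60 at 74352286, lay 202 bp from a stronger summit and had a q-value of 0.127. An IDR of 0.01 or below was given to 17 of 20 (85.0%), against 60.0% of the list. On the telomeric side it was given to 32 of 44 (72.7%). Among the strongest 10% of the list were 4 of 20 peaks on the centromeric side and 6 of 44 on the telomeric side.

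Strong centromeric peaks were not gathered at one distance. Each 100 kb step from the cluster outward to 400 kb held 2 to 4 peaks, and the strongest per step were 62.0, 59.1, 266.0 and 104.3 in turn. Beyond that, 1 peak lay between 400 and 500 kb and 2 between 500 and 600 kb. The longest stretch of the region without a summit, 148.3 kb from 73929507 to 74077827, was here. Past it, 4 peaks lay within 20.2 kb near the outer limit, from 73815258 to 73835482. The most peaks in any 50 kb of this side was 4, reached there and next to the cluster, where 4 summits lay within 33.3 kb, from 74456063 to 74489393.

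The telomeric side held 44 peaks, 55.7% of the region, on 55.0% of its length, so its share of peaks was near its share of length. It held 57.7% of the region's summed signal. Within flanks of equal length, the 700 kb next to the cluster, the counts were 36 on the telomeric side and 20 on the centromeric side. Another summit lay within 10 kb of 84.1% of telomeric peaks (37 of 44) and of 65.0% of centromeric ones (13 of 20), against 42.7% of the list. Signals ran from 6.47 to 198.2 with a median of 34.1, and 29 of 44 were above the median of the list. The full score was reached by 30 of 44 (68.2%, 95% exact binomial interval 52.4 to 81.4%), against 11 of 20 (55.0%, 31.5 to 76.9%) on the centromeric side. These intervals cover counting error only and overlap.

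The strongest telomeric peak was also the widest of the region, at 751 bp. It lay at chr2:75277595-75278345 with its summit 668.1 kb from the cluster limit, and its signal of 198.2 ranked 15 in the list. The second, at 75330723, had a signal of 117.7 (rank 163) and lay 720.7 kb from the limit. The peaks at 75192690 (82.9) and 75351109 (72.1) were also far from the cluster, so that 4 of the 5 strongest were between 582.7 and 741.1 kb away. The remaining one, at 74768863 with a signal of 81.8, was closer, at 158.9 kb. All 5 had the full score. The peak nearest to the cluster, 75.8 kb from the limit at 74685825, had a signal of 58.3 and was alone in the first 100 kb.

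Telomeric peaks came in groups. Between 400 and 700 kb from the cluster, 3 successive steps held 9, 7 and 8 peaks, 24 of the 44. The densest 50 kb stretch had 8 peaks within 37.3 kb, from 75010097 to 75047387, with signals from 9.86 to 57.0. The longest stretches without a summit inside this flank were one of 114.5 kb between 75426773 and 75541229 and one of 99.2 kb between 74877342 and 74976547. The former left the last peak of the region isolated at 75541229, with the lowest signal of all 79, 6.47, and a q-value of 0.610.

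Neighbouring summits were a median of 3020 bp apart in the cluster (14 distances, quartiles 1750 and 6432 bp). On the telomeric side the median was 6381 bp (43 distances, 2182 and 30584 bp), and on the centromeric side 25328 bp (19 distances, 3817 and 59074 bp). In the whole list it was 63497 bp. The quartile ranges of the 3 parts overlapped. The 95% binomial interval of the median was 1512 to 7436 bp for the cluster. It was 2948 to 18533 bp for the telomeric side and 2026 to 62207 bp for the centromeric side. These intervals overlapped, but they treat neighbouring distances as independent draws, and peaks are not replicates. Their overlap therefore cannot decide whether the parts differ in spacing, which was not tested. For signal, the corresponding intervals were 19.3 to 31.5 in the cluster, 27.3 to 44.2 on the telomeric side and 25.7 to 58.4 on the centromeric side. They overlapped too, and for the same reason this cannot decide whether the parts differ in signal, which was not tested. The median signal was 2.01 times as high on the centromeric side and 1.70 times as high on the telomeric side as in the cluster. In the centromeric flank 9 of 20 peaks, and in the telomeric flank 17 of 44, were stronger than the strongest cluster peak. In the whole list of 11224 peaks, that cluster peak ranked 2658.

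**Figure D3:**
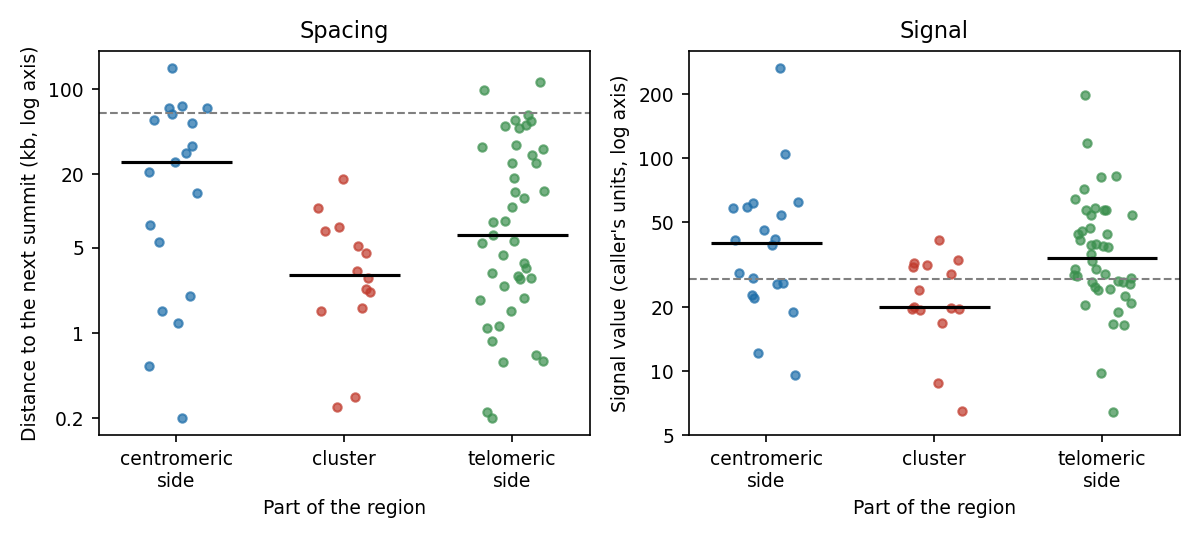
Left, the distance from each summit to the next within the same part (kb, log axis); right, the signal value of each peak (log axis); points are single distances or peaks, spread sideways for legibility, black bars are medians and dashed lines the medians of the whole list. The cluster has the shortest median spacing (3020 bp) and the lowest median signal (20.04), and the values of the 3 parts overlap.

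The pairing of many peaks with low peak strength was then set beside other dense stretches; this was decided once the values of the cluster were known. Among 23104 windows of 110 kb laid side by side, 16892 held no peak, and the 15 peaks of the HoxD cluster were the most; the next window, on chromosome 15, held 13. This rank depended on where the windows began, and they were aligned to the cluster's own limits. With windows started every 10 kb, 7 windows away from the cluster held 15 or more peaks, and the fullest of them, on chromosome 18, held 17. In the side-by-side set, 16 windows held 10 or more peaks. The HoxD cluster had the lowest maximum among these 16, 41.2, where the median of the maxima was 82.7 and the highest 185.0. Its median signal of 20.04 was the second lowest, in a range from 19.4 to 52.0. Signal was compared in this set only, and not for the 7 windows elsewhere that held 15 or more peaks at the 10 kb step. Of the 15 other dense windows, 2 were on the telomeric side of HoxD, starting 330 and 550 kb from the cluster limit. They held 11 and 12 peaks, with maxima of 57.0 and 82.9.

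**Figure D4:**
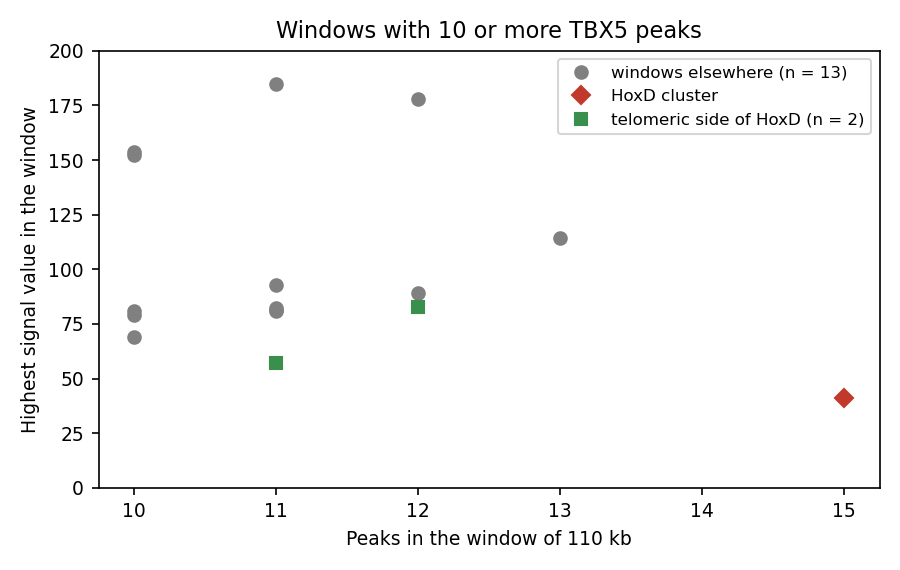
Each symbol is 1 of the 16 windows of 110 kb with 10 or more TBX5 peaks, by its number of peaks and the highest signal value in it (caller's units). The windows were laid side by side and aligned to the cluster's own limits. The HoxD cluster (diamond) has the most peaks, 15, and the lowest maximum, 41.2; the squares are the 2 windows on the telomeric side of HoxD.

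The outer limits of the region cut through no group of peaks, but they were set with its peaks in view, so this may follow from that choice. The first and last members lay 15.3 and 58.8 kb inside the limits, with signals of 22.9 and 6.47. The nearest peaks outside lay 361.0 kb beyond the centromeric limit (signal 24.5, score 756) and 189.0 kb beyond the telomeric limit (signal 30.5, score 853).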

How the data were processed

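The 79 peaks come from 1 list without a header, in the 10-column narrowPeak layout, deposited for the TBX5 ChIP group. The deposited score is a scaled IDR whose lowest value, 540, corresponds to the list's IDR limit of 0.05. The deposited signal is the peak caller's strength on an unstated scale, used only within the list. The deposited −log10 q-value reaches at most 3.95. Libraries were sequenced as single-end reads of 75 bp, per the labels' protocols. FastQC and mm10 are named in the submitters' processing notes; aligner, peak caller, filters and pooling are not given in the sources used here.

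Positions were made 1-based. Counts, spacing, signal and score were computed per part (Python 3.11.15, pandas 2.3.3, NumPy 2.4.6; intervals with SciPy 1.17.1; plots with matplotlib 3.10.9). Intervals are 95%: exact binomial for shares, and order statistics for medians. No difference was tested, because the list has no values per replicate. All 10 summary quantities of planted peaks were recovered on simulated data.

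The members, limits and lists were chosen with earlier results of these data known. Peaks named are all those in the cluster and, per side, the 5 strongest, the weakest, the nearest to the cluster and the ends of gaps and dense stretches. In the cluster, the peaks with scores of 1000 or close neighbours were singled out after their values were seen. Alternatives were stricter IDR, upper signal, joined or thinned close summits, q-value, other cluster limits and other windows.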

Additional observations from a re-analysis of the deposited data

How the results depend on the processing

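Of 110 alternative values, 92 stayed within 1.5 times the count or inside the 95% binomial interval of the value reported, and 18 moved. The 92 is not a measure of stability, because some alternatives could not move some values. Flanks of equal length left the centromeric and cluster values as they were, and joining and thinning close summits gave the same values as each other. Wide intervals also counted large shifts as unmoved, such as telomeric median spacing from 6381 to 14467 bp at an IDR of 0.01 or below. Joining overlapping intervals, leaving out peaks near a stronger summit, leaving out q-values above 0.05, moving the cluster limits by 50 kb and using flanks of equal length moved none. At an IDR of 0.01 or below, the cluster count fell from 15 to 8, and the share with a score of 1000 became 62.5% in the cluster and 93.8% on the telomeric side. In the upper 50% of signal, the region held 48 peaks, of which 13 were centromeric, 6 in the cluster and 29 telomeric. There the median spacing in the cluster was 11966 bp, the median signal was 31.9 in the cluster and 44.3 on the telomeric side, and the share with a score of 1000 was 84.6% on the centromeric side, 83.3% in the cluster and 93.1% on the telomeric side. These shifts follow in part from construction, since both filters keep the stronger or better scored peaks. The ratio of cluster to centromeric density lay between 2.94 and 4.77 under all 5 filters on peaks and both planned changes of limits, and that to telomeric density between 1.86 and 2.79. The cluster was the densest part in each of these, but not with limits from the GRCm38.p6 gene table, an alternative added after the data were seen: that cluster had 3 peaks with a median spacing of 17495 bp, a median signal of 32.9 and 66.7% at a score of 1000, and the centromeric side had 35 peaks. Cluster-length windows at a step of 10 kb were also added after the data were seen. No paired analysis was possible because each peak has 1 value for both ChIP libraries, and for that reason no replicate could be left out. Read depth is unknown, so sites missed for lack of reads cannot be counted.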

Other observations

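In 5 pairs of the HoxD region the summits were 500 bp or less apart. Of these, 1 was on the centromeric side, 2 in the cluster and 2 on the telomeric side. So 5 of 79 peaks (6.33%) had a stronger summit that close, against 10.1% of the whole list. The share was 5.0% on the centromeric side (1 of 20), 13.3% in the cluster (2 of 15) and 4.55% on the telomeric side (2 of 44). These counts are small and the difference from the list was not tested. The distances were 202 bp in 2 pairs, and 225, 248 and 302 bp in the others. The weaker summit had between 0.158 and 0.630 times the signal of the stronger. The weaker summits had scores of 948 on the centromeric side, 546 and 843 in the cluster, and 1000 in both telomeric pairs. Other peaks of the region with signals under 20 and no stronger summit that close had scores from 591 to 679, so 4 of the 5 weaker summits scored above that range and 1 below it. This was noticed in the values and was not tested.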
